A study of Mus musculus with 12 samples.

Results

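The chains of the IL-4 receptor and of the receptors that share the common gamma chain were followed in activated mouse B cells with and without IL-4, in the presence and absence of STAT6. The 9 genes are Il4ra, Il2rg, Il13ra1, Il2ra, Il2rb, Il7r, Il9r, Il21r and Il15ra. They were taken by gene name from the array annotation, which gave 13 probes out of 55681 and 9 of 34650 gene names. Of the 13 probes, 11 were bright enough to be tested, and these covered 8 of the 9 genes; Il13ra1 was too dim to test.

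The cells were splenic B cells, isolated by negative selection, of female BALB/c mice aged 9 weeks. The mice were wild type or STAT6 ko. All cultures received an anti-CD40 antibody at 10 µg/ml and LPS (lipopolysaccharide) at 2 µg/ml for 4 days, so the controls were activated cells too. IL-4 was added at 25 ng/ml to one culture set of each genotype and left out of the other. The 4 groups held 3 arrays each. They are called control (without IL-4) and IL-4, in wild type and in knockout. The knockout allele and the number of mice are not given in the sources used here, so p-values measure the spread between cultures and arrays.

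IL-4 signals through IL-4Rα, encoded by Il4ra, paired either with the common gamma chain (Il2rg) or with IL-13Rα1 (Il13ra1), and the bound receptor activates JAK kinases and STAT6. The common gamma chain is also a subunit of the receptors for IL-2, IL-7, IL-9, IL-15 and IL-21, each of which adds its own chain or chains. Because the chains are shared, the amount of one chain can matter to several cytokines at once, and the chains compete for the same partner.

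Each array carried a single Cy3-labelled sample, and its brightness is given here as scaled intensity, the processed signal multiplied so that the 75th percentile of every array was 323. A scaled intensity can be compared between groups for 1 probe, not between probes, because probes differ in how well they hybridise. The arrays were alike in brightness, with 75th percentiles of 296 to 356 before scaling. Of the non-control spots on an array, 40.7% to 44.0% were well above background, and correlations within groups were 0.994 to 0.998. They lay on 2 slides scanned at different times: the first held the 6 wild-type arrays with controls 1 and 2 of the knockout, and the second held its control 3 and its 3 IL-4 arrays. The knockout response to IL-4 therefore compares within a slide only against control 3, and no wild-type array shares a slide with knockout IL-4.

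Stat6 itself was checked against the labels first. Its brightest probe had a mean scaled intensity of 2924 ± 130.1 (SD, n = 3) without and 3325 ± 154 with IL-4 in wild type, and of 762 ± 49.9 without and 869 ± 91.9 with IL-4 in the knockout. It was lower in the knockout by 1.94 ± 0.08 on the log2 scale (SE) both without and with IL-4, all 3 Stat6 probes were lower, and all stayed well above background in the knockout. Whether any probe lies in the deleted part is not given. The B-cell markers Cd79a and Cd79b were well above background on all 12 arrays. Of 8 T-cell markers, 4 were well above background on all arrays, among them the defining markers Cd3e (group means of 187 to 231) and Cd3g (68.6 to 78.9), while Cd8a and Cd8b1 were on none. The summed T-cell list ran from 754 to 981 on 9 arrays and from 34878 to 37541 in wild-type IL-4, where Thy1 alone averaged 35220. The defining markers of NK cells (Ncr1), of mast cells and basophils (Fcer1a, Mcpt8) and of neutrophils (Ly6g) were above background on no array. Other genes of those lists were: Prf1 on 12 arrays (group means of 175 to 240.0), Kit on 9 (114 in wild-type control and 5.60 in wild-type IL-4), S100a8 on 4, Cpa3 on 2, and Eomes and S100a9 on 1 each. The defining markers of macrophages (Csf1r, 188 to 231) and dendritic cells (Zbtb46, 217 to 553) were above background on all arrays. The macrophage list summed to 4919 to 5110 in wild-type IL-4 against 14955 to 18059 elsewhere. The dendritic list summed to 35791 to 47576 over all arrays, and its genes moved in different directions. In wild-type control and IL-4, Zbtb46 averaged 217 and 553, Flt3 8764 and 2801, and Siglech 30354 and 37368. Itgax was above background on 3 arrays and Xcr1 on 0. In cultures, fewer cells of a type and less RNA per cell cannot be told apart, and the part of other cells in the results was not tested.

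In wild-type B cells IL-4 changed 7 of the 8 tested chains, 5 upward (Il4ra, Il7r, Il2rb, Il2ra and Il21r) and 2 downward (Il9r and Il15ra). Here and below a gene is said to rise, to fall or to be higher or lower where its adjusted p was under 0.05 in limma's moderated test, adjusted by Benjamini-Hochberg over all 16497 genes tested. By this rule 57.1% of all genes changed (26.4% upward, 30.8% downward). With a minimum of 2-fold, 3 chains rose and 1 fell, against a background of 12.7% in either direction. The median difference was 0.45 for the 8 chains and -0.04 for all genes (log2), and the median absolute difference 0.87 and 0.29. Without STAT6, IL-4 changed 4 chains (background 42.2%, with 27.5% upward and 14.7% downward): Il2rg and Il15ra rose, Il9r and Il2rb fell, and none reached 2-fold (background 3.52%). There the median absolute difference was 0.25 for the chains and 0.21 for all genes. The response itself differed between genotypes for 7 of the 8 chains (background 44.8%), Il21r being the exception. It was higher in wild type for 4 (background 16.4%) and lower for 3 (background 28.3%), and 4 of the 7 differed by at least 2-fold (background 10.6%).

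**Figure D1:**
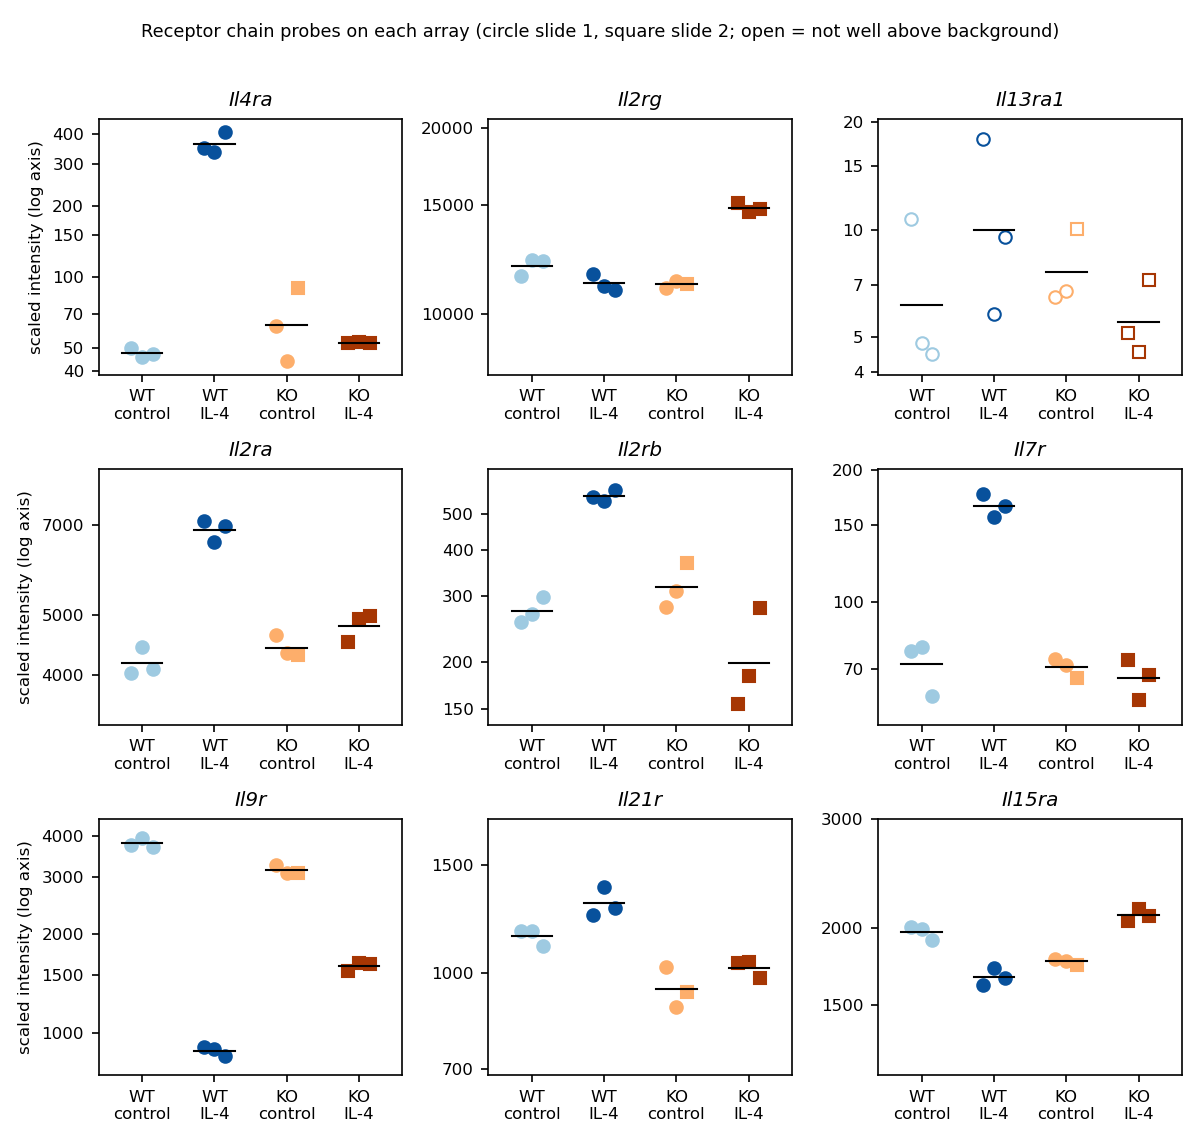
Scaled intensity (log axis, a separate range in each panel) of the brightest probe of each of the 9 genes on the 12 arrays. Each point is an array, horizontal lines are geometric means of 3 arrays, circles lie on slide 1 and squares on slide 2, and open symbols were not well above background, as for Il13ra1 throughout. Il4ra stands at 337 to 408 in wild-type IL-4 and at 44.0 to 89.4 on all other arrays.

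Il4ra, the ligand-binding chain of both IL-4 receptors, had the largest rise of the 8. Its probe read 50.03, 45.9 and 47.3 in the 3 wild-type controls and 350.0, 337 and 408 with IL-4. The knockout arrays read 61.8, 44.0 and 89.4 without IL-4 and 52.5, 53.1 and 52.6 with it. The 3 wild-type IL-4 arrays stood above every other array, and the knockout groups overlapped. IL-4 raised Il4ra in wild type by 2.93 ± 0.20 on the log2 scale (SE, 7.63-fold, adjusted p = 5.54e-07), a rise that ranked 159 of 16497 genes. In the knockout the difference was -0.24 ± 0.20 (adjusted p = 0.355, 95% interval -0.68 to 0.20). The responses differed by 3.17 ± 0.28 (adjusted p = 1.01e-05).

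The size and, in the knockout, the call depended on the processing. In the authors' deposited gene-level table the wild-type rise came to 1.69 and the difference between responses to 1.69, and with normexp background correction to 1.84 and 2.05, all past the threshold. In the knockout, knockout control 3 was the highest control and the only one on the slide of the IL-4 arrays. With slide as a block the knockout difference was -0.76 (adjusted p = 0.00878), without control 2 it was -0.50 (adjusted p = 0.0234), and without control 3 it was 0.02 (adjusted p = 0.939).

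The Il4ra probe starts at base 466 of the transcript NM_001008700 and lies at chr7:132712550-132712609 on the plus strand (mm9, per the array annotation). Its sequence is shown because the main finding for this gene rests on it alone, and it encodes part of the extracellular region of the receptor.
Il4ra probe: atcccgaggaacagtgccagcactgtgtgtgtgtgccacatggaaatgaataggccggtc
A second Il4ra probe, starting at base 5027 of the same transcript and 10.372 kb further on, was above background on 0 of 12 arrays. It read 5.41 to 6.18 in wild-type control and 6.14 to 11.4 in wild-type IL-4, so the rise seen with the first probe has no second reading. No array read above 11.4 with it.

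Il2rg, the common gamma chain itself, did not follow Il4ra. It read 11508, 12224 and 12196 in wild-type control and 11627, 11108 and 10929 with IL-4, ranges that overlapped. In the knockout it read 11036, 11331 and 11206 without IL-4 and 15119.5, 14623 and 14818 with it, so every knockout IL-4 array exceeded all 9 others. IL-4 raised Il2rg in the knockout by 0.41 ± 0.04 (SE, 1.33-fold, adjusted p = 6.14e-05), and the wild-type difference was -0.09 ± 0.04 (adjusted p = 0.0913). The responses differed by -0.50 ± 0.06, wild type minus knockout (adjusted p = 1.15e-04). Within the second slide, against control 3, the knockout rise was 0.41 as well. The wild-type decrease passed the threshold under quantile normalisation (-0.15, adjusted p = 0.010) and in the authors' deposited table (-0.18, adjusted p = 0.00487).

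Il13ra1, the partner of IL-4Rα in the receptor that also binds IL-13, was not well above background on any array. Its only probe read 4.48 to 17.9, and it was left out of the tests. The lowest signal called well above background lay between 15.5 and 28.2, depending on the array.

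Il2rb, the chain shared by the receptors for IL-2 and IL-15, moved in opposite directions in the 2 genotypes. Its brighter probe read 256, 269 and 299.7 in wild-type control and 555, 542 and 578 with IL-4. In the knockout it read 280.1, 310.2 and 369 without IL-4 and 155, 183 and 279 with it; the groups did not overlap, though the highest IL-4 array and the lowest control nearly met. Il2rb rose in wild type by 1.02 ± 0.18 (SE, 2.03-fold, adjusted p = 7.81e-04), and fell by 0.67 in the knockout (SE 0.18, 1.59-fold lower, adjusted p = 0.0145). The responses differed by 1.70 ± 0.26 (adjusted p = 5.02e-04). The knockout decrease lost its call without knockout IL-4 array 1 (-0.49, adjusted p = 0.0523), without IL-4 array 2 (-0.61, adjusted p = 0.0516), without knockout control 3 (-0.57, adjusted p = 0.0550) and when only the knockout arrays were fitted (-0.67, adjusted p = 0.0718). The wild-type rise was 0.49 with normexp correction. The second Il2rb probe, 1.338 kb away on chromosome 15, gave 0.61 ± 0.11 in wild type and -0.92 ± 0.11 in the knockout. Both were called (adjusted p over all probes = 8.03e-04 and 1.39e-04), and its knockout IL-4 arrays, at 151, 165 and 211, lay well under the controls at 349.8, 314 and 321.

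Il2ra encodes CD25, the alpha chain that gives the IL-2 receptor its high affinity. It read 4028, 4434 and 4080.2 in wild-type control and 7096, 6551 and 6963 with IL-4. Knockout arrays read 4629.6, 4328 and 4307 without IL-4 and 4512, 4924 and 4982 with it. The wild-type IL-4 arrays stood above all others and the remaining 9 overlapped. IL-4 raised Il2ra in wild type by 0.72 ± 0.06 (SE, 1.64-fold, adjusted p = 3.16e-06); in the knockout the difference was 0.12 ± 0.06 (adjusted p = 0.140), and the responses differed by 0.60 ± 0.09 (adjusted p = 3.19e-04). With arrays scaled to their medians the knockout difference was 0.27 and passed (adjusted p = 0.0198).

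Il15ra, which binds IL-15 and presents it to cells carrying Il2rb and Il2rg, changed in the reverse sense. Its brighter probe read 2004, 1990.0 and 1912 in wild-type control and 1614, 1723 and 1662 with IL-4, while in the knockout it read 1783, 1765 and 1744 and then 2054, 2149 and 2092. IL-4 lowered it in wild type and raised it in the knockout, without overlap in either. The wild-type difference was -0.24 ± 0.04 (SE, adjusted p = 7.22e-04) and the knockout difference 0.25 ± 0.04 (adjusted p = 0.00112), and they differed by -0.49 ± 0.06 (adjusted p = 1.14e-04). The second probe, 0.607 kb away, gave larger values in the same directions, -0.36 in wild type and 0.54 in the knockout. With median scaling the wild-type decrease of the brighter probe missed the threshold (-0.22, adjusted p = 0.0565). Median scaling also moved the median of all genes in the knockout response from 0.05 to 0.20, and under it the knockout rises of Il15ra and Il2rg were 0.40 and 0.56. These are the upper ends. Over all settings the knockout rise ran from 0.13 to 0.40 for Il15ra (highest adjusted p = 0.0417). For Il2rg it ran from 0.28 to 0.56 (highest adjusted p = 0.00389).

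**Figure D2:**
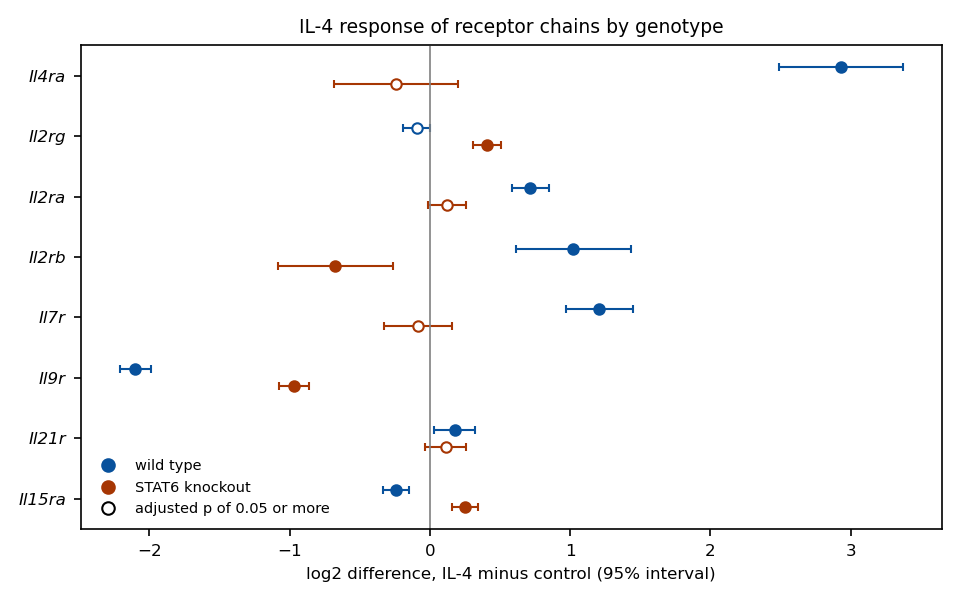
Difference between IL-4 and control arrays (log2, with 95% intervals from limma) for the 8 tested chains, in wild type (blue) and in the STAT6 knockout (brown). Filled symbols had an adjusted p under 0.05; Il4ra was 2.93 in wild type and -0.24 in the knockout, and Il9r was lower in both.

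Il7r, the IL-7 receptor alpha chain and a hallmark of early B-cell progenitors and of T cells, was dim but above background on all 12 arrays. It read 77.2, 78.6 and 61.0 in wild-type control and 177, 156 and 166 with IL-4. In the knockout it read 73.8, 71.8 and 66.8 without IL-4 and 73.3, 59.5 and 67.9 with it. The wild-type IL-4 arrays lay apart, each above 150, and the other 9 overlapped. IL-4 raised Il7r in wild type by 1.21 ± 0.11 (SE, 2.31-fold, adjusted p = 4.76e-06). The knockout difference was -0.08 ± 0.11 (adjusted p = 0.561, 95% interval -0.32 to 0.15), and the responses differed by 1.29 ± 0.15 (adjusted p = 8.42e-05). With normexp correction the wild-type rise was 0.74. Of the T-cell markers, Cd3e averaged 187 without and 231 with IL-4 in wild type, Cd3g 71.7 and 78.9, Cd3d 40.2 and 66.4, and Cd4 362 and 339. Knockout means without and with IL-4 were 198 and 193 for Cd3e, 72.0 and 68.6 for Cd3g, 56.1 and 72.8 for Cd3d, and 410 and 363 for Cd4. Thy1 averaged 18.5 and 35220 in wild type and 38.9 and 103 in the knockout. Cd28 averaged 64.3 and 230 in wild type and 65.2 and 23.9 in the knockout. The part of T cells in the Il7r values was not tested.

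Il9r, the ligand-binding chain for IL-9, was the chain that fell most, and it fell in both genotypes. Its brighter probe read 3737, 3947 and 3682 in wild-type control and 907, 892 and 849 with IL-4. The knockout arrays gave 3266, 3077 and 3077 without IL-4 and 1551, 1633 and 1629 with it. The 4 groups were separate, with the knockout IL-4 arrays between the controls and wild-type IL-4. IL-4 lowered Il9r in wild type by 4.29-fold (-2.10 ± 0.05 log2, SE, adjusted p = 2.65e-10) and in the knockout by 1.96-fold (-0.97 ± 0.05, adjusted p = 8.93e-07). The wild-type decrease was larger by 1.13 on the log2 scale (-1.13 ± 0.07, adjusted p = 7.21e-07). The second probe, 1.497 kb away on chromosome 11, gave -2.53 and -1.20, so on that probe the knockout decrease passed 2-fold. Within the second slide the brighter probe gave -0.94 for the knockout.

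Il21r, the IL-21 receptor chain, whose ligand acts on activated B cells, had the smallest difference between the responses of the 2 genotypes among the 8 tested chains. It read 1171, 1169 and 1107 in wild-type control and 1241, 1379.6 and 1276 with IL-4. The knockout read 1024, 882 and 933 without IL-4 and 1039.6, 1043 and 981 with it. Wild-type arrays with IL-4 were all above those without, by a narrow margin, and the knockout groups overlapped. The wild-type difference was 0.18 ± 0.06 (SE, 1.13-fold, adjusted p = 0.0388). It missed the threshold under 8 of 24 alternatives. Among them were median scaling (adjusted p = 0.167) and no filter on dim probes (adjusted p = 0.131). It was also missed without any 1 of wild-type controls 1, 2 or 3 or of wild-type IL-4 arrays 2 or 3, with adjusted p of 0.0612 to 0.139. The knockout difference was 0.11 ± 0.06 (adjusted p = 0.193), and the responses differed by 0.06 ± 0.09 (adjusted p = 0.596, 95% interval -0.14 to 0.27).

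**Figure D3:**
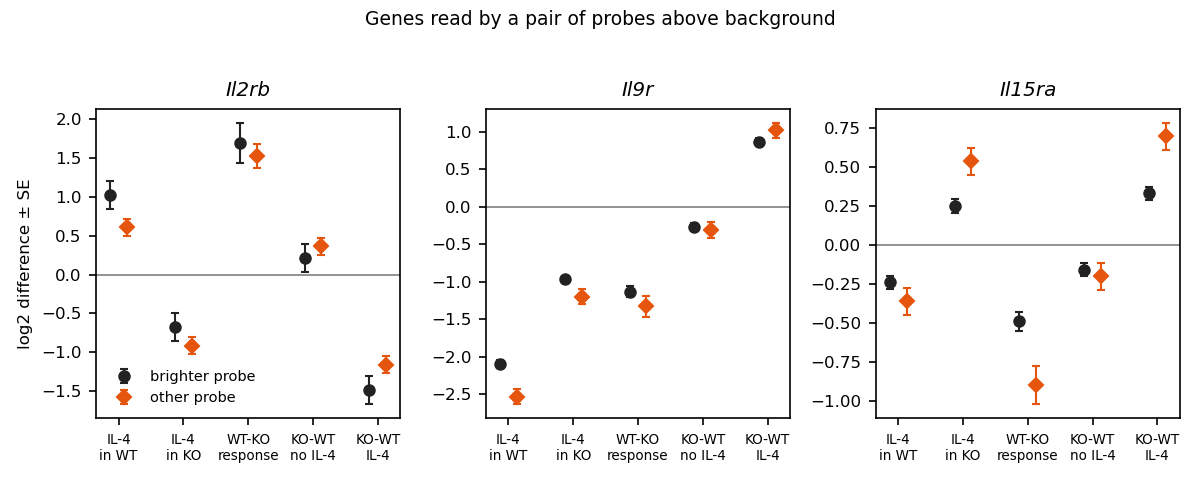
Log2 differences with SE for the 3 genes read by a pair of probes above background, for the IL-4 response in wild type (WT) and knockout (KO), the difference of responses, and the knockout against wild type without and with IL-4. Circles are the brighter probe and diamonds the other; the pairs have the same sign throughout, and for Il15ra the response difference was -0.49 and -0.90.

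Between genotypes, the chains differed little without IL-4 and all differed with it. Without IL-4, 3 of 8 chains were lower in the knockout (background 6.96%, and 11.7% in either direction) and none by 2-fold (background 1.18%). Il9r differed by -0.27 ± 0.05 (SE, adjusted p = 0.0128), Il21r by -0.28 ± 0.06 (adjusted p = 0.0273) and Il15ra by -0.16 ± 0.04 (adjusted p = 0.0429). With slide as a block none was called, with adjusted p of 0.0510, 0.0923 and 0.126, and leaving out wild-type control 2 or knockout control 2 also left none. Leaving out wild-type control 1 or 3 or knockout control 3 left Il9r alone. The Il15ra call was lost under 17 of 24 alternatives. These include the deposited table (-0.10, adjusted p = 0.190), quantile normalisation (-0.10, adjusted p = 0.1497), the mean of probes (-0.18, adjusted p = 0.0524), slide as a random block (-0.16, adjusted p = 0.0505) and leaving out wild-type IL-4 array 1, 2 or 3 or knockout IL-4 array 2 (adjusted p = 0.0552 to 0.0651).

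For the IL-4 receptor chain itself the genotypes were not shown to differ before IL-4. Il4ra was 0.39 ± 0.20 higher in the knockout controls on the log2 scale (adjusted p = 0.197, 95% interval -0.05 to 0.83), and 0.13 on the first slide alone. Il2rg differed by -0.10 ± 0.04 (adjusted p = 0.153), Il2ra by 0.08 ± 0.06 (adjusted p = 0.366), Il2rb by 0.21 ± 0.18 (adjusted p = 0.441) and Il7r by -0.02 ± 0.11 (adjusted p = 0.908). Median scaling moved the median of all genes in this comparison from -0.04 to -0.22, and under it Il2rg passed at -0.28 (adjusted p = 0.0311). Il2rb passed with normexp correction at 0.29 (adjusted p = 0.0354), and its second probe differed by 0.37 ± 0.11, without overlap between the groups (adjusted p over all probes = 0.0597).

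With IL-4, all 8 tested chains differed between genotypes (background 51.1%), 5 lower (background 21.3%) and 3 higher (29.8%) in the knockout. The 3 that were at least 2-fold lower (background 5.05%, and 9.68% in either direction) were Il4ra (-2.79 ± 0.20, SE, adjusted p = 1.08e-06), Il2rb (-1.49 ± 0.18, adjusted p = 7.29e-05) and Il7r (-1.31 ± 0.11, adjusted p = 3.23e-06). Il2ra was lower by 0.52 (SE 0.06, adjusted p = 4.91e-05) and Il21r by 0.35 (SE 0.06, adjusted p = 0.00124). Il9r was higher by 0.86 ± 0.05 (adjusted p = 2.05e-07), Il2rg by 0.40 ± 0.04 (adjusted p = 2.66e-05) and Il15ra by 0.33 ± 0.04 (adjusted p = 9.57e-05). These groups lie on separate slides, and a slide block, which rests on the knockout controls, ended the call of Il21r (adjusted p = 0.0735) and of no other chain.

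**Figure D4:**
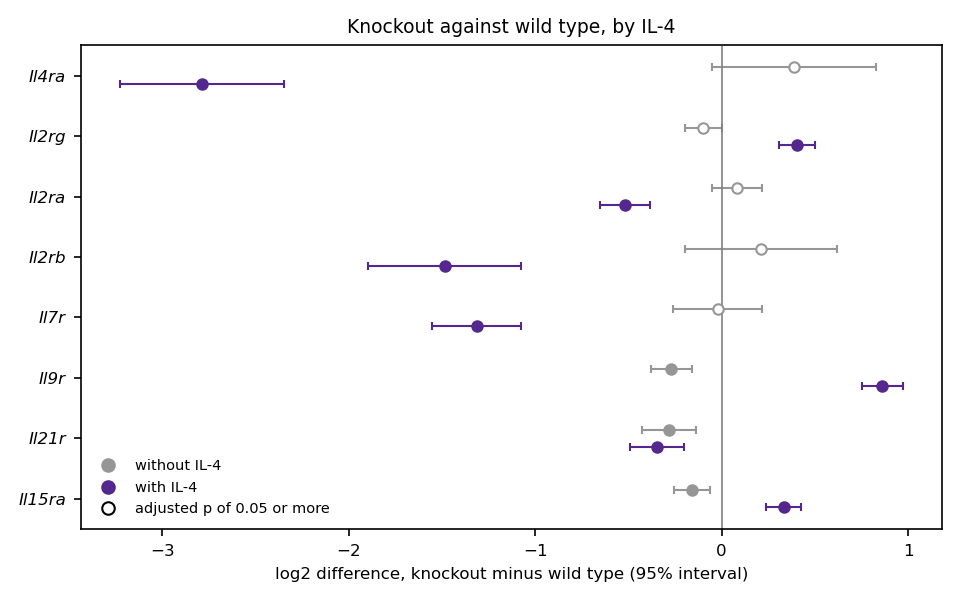
Knockout minus wild type (log2, with 95% intervals from limma) for the 8 tested chains without IL-4 (grey) and with IL-4 (purple). Filled symbols had an adjusted p under 0.05; without IL-4 every estimate lies between -0.28 and 0.39, and with IL-4 Il4ra reached -2.79.

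Of the ligands of these receptors, only Il2 was bright enough to be tested of 8 listed; Il4, Il7, Il9, Il13, Il15, Il21 and Tslp were not well above background in any whole group. Il2 read 53.1, 55.9 and 75.5 in knockout IL-4, well above background on all 3. It was not well above background on any knockout control array (9.13, 6.42 and 18.5) or wild-type IL-4 array (4.68, 6.04 and 5.15). The wild-type controls read 8.06, 46.8 and 4.66, and the array at 46.8 was well above background. Against background, Il2 was at least 2.68-fold higher in the knockout than in wild type, both with IL-4. It entered the tests only through the knockout IL-4 arrays, where it is high, so its p-value is no support. The slide block ended its call (adjusted p = 0.198). The bound takes the dim group at the lowest signal called well above background on each array.

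Of 6 related receptor chains listed, 5 were tested, among them Crlf2, which pairs with Il7r. The others were Csf2rb and Csf2rb2, beta chains of the IL-3 and IL-5 receptor family, and its alpha chains Il3ra and Il5ra. Il13ra2, which binds IL-13, was too dim. In wild type 3 rose and 1 fell (background 57.1% in either direction, median 0.29 against -0.04 for all genes), and in the knockout 1 rose and 2 fell (background 42.2%, median -0.07 against 0.05). Il5ra, the IL-5 receptor alpha chain, read 485, 559.8 and 488 in wild-type control and 36082, 35278 and 34746 with IL-4, a rise of 6.12 ± 0.10 (SE, adjusted p = 2.60e-11). In the knockout it differed by -0.07 ± 0.10 (adjusted p = 0.572). Csf2rb, the common beta chain that pairs with Il5ra, fell in wild type by 0.86 (SE 0.07, adjusted p = 3.79e-06) and in the knockout by 0.23 (adjusted p = 0.0295). That knockout call ended with the slide block (adjusted p = 0.424), with median scaling (adjusted p = 0.532) and without knockout control 1 or 2 or IL-4 array 1 or 3 (adjusted p = 0.0626 to 0.0897). Il3ra, the IL-3 receptor alpha chain, rose in both, by 0.59 and 0.51, and its responses differed by 0.08 ± 0.17 (adjusted p = 0.711).

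Among the 10 kinases and STATs that relay these receptors, 5 rose and 3 fell in wild type (background 26.4% and 30.8%, median 0.24), and 4 rose and 1 fell in the knockout (background 27.5% and 14.7%, median 0.11; 2 rose and 1 fell with slide as a block). Stat5a and Stat5b, the STATs used by IL-2, IL-7, IL-9 and IL-15, rose in wild type by 2.18 ± 0.12 and 1.34 ± 0.08 (SE). In the knockout they rose by 0.48 and 0.35 (adjusted p = 0.00765 and 0.00764), calls that ended with the slide block (adjusted p = 0.173 and 0.178) and with only the arrays compared (0.0556 and 0.0576). Stat5b also lost its call with quantile normalisation (adjusted p = 0.0849) and in the deposited table (adjusted p = 0.0817). Their responses differed by 1.70 ± 0.17 and 1.00 ± 0.12. Stat4, a STAT best known downstream of IL-12, rose by 0.76 in wild type and 0.65 in the knockout, and the difference of 0.12 ± 0.10 missed the threshold (adjusted p = 0.350).

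The list of SOCS family members and phosphatases held 10 genes: Socs1, Socs2, Socs3, Socs5, Socs6, Socs7, Cish, Ptpn2, Ptpn6 and Ptpn11. Of these, 7 rose and 1 fell in wild type (background 26.4% and 30.8%, median 0.50). In the knockout 7 rose and 1 fell (background 27.5% and 14.7%, median 0.38), and with slide as a block 5 rose and 0 fell. At least 2-fold rises numbered 4 in wild type and 0 in the knockout (background 12.7% and 3.52%, either direction). Cish, an inhibitor induced by STAT5, read 177, 195 and 198 in wild-type control and 24724, 23598 and 24052 with IL-4. It rose by 6.99 ± 0.15 in wild type and by 0.64 ± 0.15 in the knockout (SE, adjusted p = 1.41e-10 and 0.00668). Socs2, which acts on growth hormone and cytokine receptors, rose by 5.96 ± 0.10 and by 0.37 ± 0.10 (adjusted p = 3.79e-11 and 0.0161). The slide block ended the knockout calls of Cish (adjusted p = 0.125) and Socs2 (adjusted p = 0.357). Socs2 also lost its knockout call with the mean of probes (adjusted p = 0.0987), with only the arrays compared (0.0659) and with no filter on dim probes (0.0555). Socs1, an inhibitor of JAK kinases, rose by 2.09 ± 0.09 and 0.56 ± 0.09.

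Of the adaptors that dock on the receptors, 6 of 8 listed were tested, 2 rose and 1 fell in wild type (background 57.1% in either direction, median 0.13), and 1 fell in the knockout (background 42.2%, median 0.06; 2 rose and 1 fell with median scaling). Irs2, which links IL-4Rα to PI3 kinase, read 5815, 5916 and 5652 in wild-type control and 4304, 4071 and 4302 with IL-4, and in the knockout 5318, 4807 and 4620.4 and then 2439, 2107 and 2526. It fell in both genotypes, and by more in the knockout: -0.46 ± 0.07 against -1.06 ± 0.07, a difference of 0.61 ± 0.11 (SE, adjusted p = 0.00115). Dok2, an adaptor that dampens tyrosine kinase signals, rose by 1.16 ± 0.12 in wild type and differed by -0.24 ± 0.12 in the knockout (adjusted p = 0.155). In the knockout Dok2 was called lower with quantile normalisation (-0.36, adjusted p = 0.0240), in the deposited table (-0.37, adjusted p = 0.0150) and without knockout control 3 (-0.35, adjusted p = 0.0418). Shc1, which links receptors to Ras, rose by 0.16 in wild type (adjusted p = 0.0437), a call lost with median scaling (adjusted p = 0.168) and without any 1 of wild-type controls 1 or 3, the 3 wild-type IL-4 arrays, knockout control 2 or knockout IL-4 array 1 (adjusted p = 0.0553 to 0.129).

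Among the 9 genes, 2 pairs are neighbours in the genome. The tested Il4ra probe and the Il21r probe at chr7:132776725-132776784 are 64.175 kb apart, with 0 annotated genes between them in RefSeq (GRCm38.p6). Il4ra rose 7.63-fold with IL-4 in wild type and Il21r 1.13-fold. Il2ra and Il15ra on chromosome 2 are 40.672 kb apart by their tested probes (mm9), with 0 protein-coding genes between them, and in wild type Il2ra rose by 0.72 while Il15ra fell by 0.24.

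The sequences before the start sites were read from RefSeq promoters (GRCm38.p6), which matched 8 of the 9 genes with 9 promoters in all. A promoter here is the 250 bases before and 50 after the start. The spacing TTCNNNNGAA, the form that STAT6 favours, was in 0 of the 9, against 6.95% of 32851 promoters. The shorter TTCNNNGAA, bound by most other STATs, was in Il7r alone, against 8.3% of all promoters. The octamer ATGCAAAT, bound by OCT factors in B cells, was searched after the Il4ra sequence had been read, and it was in Il4ra alone, against 1.74% of all promoters. Its match in Il4ra was thus known before the search, and the percentage gives that match no weight. The STAT spacings read the same on both strands and the octamer was searched on both. The 250 bases before the start are given for the chain with the largest rise, for the chain with a STAT spacing and for the chain with the largest fall, with any match in capitals: chr7:125552021-125552270 on the plus strand for Il4ra, chr15:9529877-9530126 on the minus strand for Il7r and chr11:32200280-32200529 on the minus strand for Il9r.
Il4ra: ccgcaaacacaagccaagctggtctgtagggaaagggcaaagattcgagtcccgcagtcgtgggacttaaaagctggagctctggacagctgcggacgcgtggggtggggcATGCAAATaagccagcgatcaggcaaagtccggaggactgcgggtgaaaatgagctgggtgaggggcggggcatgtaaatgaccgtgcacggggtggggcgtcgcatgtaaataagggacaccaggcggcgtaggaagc
Il7r: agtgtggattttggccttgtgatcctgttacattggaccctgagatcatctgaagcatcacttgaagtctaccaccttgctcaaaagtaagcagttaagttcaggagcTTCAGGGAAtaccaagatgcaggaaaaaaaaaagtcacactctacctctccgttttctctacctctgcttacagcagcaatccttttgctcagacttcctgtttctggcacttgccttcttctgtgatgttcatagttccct
Il9r: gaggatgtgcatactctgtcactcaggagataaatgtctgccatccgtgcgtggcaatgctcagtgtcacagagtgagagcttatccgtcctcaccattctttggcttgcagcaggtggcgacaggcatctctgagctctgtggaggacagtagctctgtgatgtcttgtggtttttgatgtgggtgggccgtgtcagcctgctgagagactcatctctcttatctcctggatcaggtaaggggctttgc
The Il4ra octamer spans bases -139 to -132 from the start and the Il7r spacing, TTCAGGGAA, bases -142 to -134. No searched motif is in the Il9r window, and no binding was measured here.

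The genes whose log2 values followed each chain most closely over the 12 arrays were found among 10308 candidates by Pearson's r. The arrays form 4 groups, so each r mostly reflects the order of the group means, and it is given as a description. For Il4ra they were Gaa (0.990), Pacsin3 (0.989) and Fads3 (0.988). For Il7r they were Ormdl3 (0.993), Itgb3 (0.983) and P2ry10 (0.983), and for Il2ra Arl13b (0.992), Usp33 (0.986) and Mtdh (0.985). Il2rb was followed by Ccdc80 (0.975), Fam46c (0.970) and Fbxl20 (0.969). Il9r had the highest values, with Btg1 (0.995), Derl3 (0.994) and Txndc11 (0.993). Il2rg was followed by Cs (0.987), Hells (0.986) and Rbm26 (0.981), Il15ra by Peli1 (0.963), Cx3cl1 (0.961) and Nono (0.960), and Il21r by Shc1 (0.958), Ugcg (0.958) and Slc14a1 (0.955).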

How the data were processed

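The deposited intensities are the processed green signals of Agilent Feature Extraction 10.7.3.1 from 1-colour arrays, background-subtracted, per the file headers, which also give probe positions on mm9. The authors' deposited gene-level table holds log2 values whose normalisation is not given in the sources used here; it served as an alternative. Array labelling used 100 ng of RNA, per the labels' protocols.

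From the intensities, outlier spots (122 to 196 per array) were left out, log2 signals were set against the 75th percentile of each array, and spots of a probe were averaged. Probes were tested when every array of 1 or more groups (3 each) showed them well above background and each group had 2 or more values. The brightest kept probe stood for its gene. Group means over 12 arrays were fitted with limma 3.58.1 (R 4.3.3), with 5 contrasts and Benjamini-Hochberg adjustment over 16497 genes. Per-probe p-values were adjusted over 22940 probes. The number of arrays limits the precision. The fit was tested on simulated data with independent noise, no slide effect and changes in wild-type IL-4 only. The knockout comparisons, where slide and group go together, were not tested by it.

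The chains, their pathway lists and the rules were chosen with earlier results of these data known. Named were all 9 chains, Stat6, up to 3 genes of each pathway list with the smallest adjusted p for IL-4 in wild type, and the 3 genes most like each chain. Replicate numbers were not used to pair the arrays in the main fit. Of 18 pairs of arrays with a shared number, many of them across genotypes, 2 had correlated deviations above 0.1. Both were knockout control with knockout IL-4, at 0.32 for number 1 and 0.39 for number 3, against -0.02 for number 2. In wild type, control with IL-4 gave 0.03 to 0.07. Whether cultures were paired within a genotype is not settled by these values. Alternatives were other scalings, background correction, filters, probe rules, slide and replicate blocks, the deposited table and leaving out each array. Figures were drawn with matplotlib.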

Additional observations from a re-analysis of the deposited data

Results flagged for a closer look

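For 7 of the 8 tested chains, the test of the difference between the wild-type and the knockout response to IL-4 passed the threshold (limma). The response was higher in wild type for Il4ra (3.17, log2), Il2rb (1.70), Il7r (1.29) and Il2ra (0.60). It was lower in wild type for Il9r (-1.13), Il2rg (-0.50) and Il15ra (-0.49). Il2rb and Il15ra changed in opposite directions in the 2 genotypes, each past the threshold in both, though the knockout call of Il2rb did not survive leaving out any 1 of 3 knockout arrays.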

How the results depend on the processing

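Of 952 values for single chains under the alternatives, 888 kept their direction and side of the threshold, 43 lost their call, 7 gained one and 14 changed sign. In the 14 the value as reported had not passed. They concern the knockout response of Il4ra (0.0023 in the deposited table and 0.016 without 1 array, in a range of -0.50 to 0.016 when 1 array was left out, whose lower end kept its sign and passed), of Il2ra (-0.011 in the deposited table, -0.00093 with quantile normalisation) and of Il7r (0.041 in the deposited table, 0.068 with median scaling, 0.083 with quantile normalisation). The others were the response difference of Il21r (-0.069 with median scaling) and, without IL-4, the genotype difference of Il2ra (-0.10 with median scaling) and Il7r (0.0084 with normexp, 0.020 with slide as a block, -0.14 to 0.044 when 1 array was left out).

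The 3 chains called between genotypes without IL-4 became 0 with no filter on dim probes, 1 with only the arrays compared and 0 with slide as a block, and 0 to 3 when 1 array was left out. At 2-fold, the wild-type count of 4 became 2 in the deposited table and with normexp. The knockout count of 0 became 1 (Il9r) in the deposited table, with the mean of probes and with quantile normalisation. The count of 4 response differences became 2 in the deposited table, and the 3 genotype differences with IL-4 became 1 with normexp. For the 13 named genes of the pathway lists and Stat6, 917 of 968 values kept direction and side and 11 small ones changed sign. These were the knockout response of Il5ra (0.078 with median scaling, 0.052 with slide as a block, -0.15 to 0.031 when 1 array was left out) and the response differences of Il3ra (-0.050 and -0.14 under the first 2 settings, -0.055 to 0.20 when 1 array was left out), Stat4 (-0.014 with median scaling) and Shc1 (-0.090, -0.019, -0.0068 to 0.083 when 1 array was left out).

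Over all groups, 2 of 12 arrays deviated most like those sharing their number, a count that also sets wild-type against knockout arrays. Pairing within a genotype was not tested by it, and the replicate block ties the numbers across both genotypes. With a replicate block the wild-type count was 6 instead of 7, since Il21r missed the threshold (adjusted p = 0.0531), and Il15ra lost its call between genotypes without IL-4 (adjusted p = 0.0602). The block changed no other call of the 8 chains. In the pathway lists it changed single calls, in wild type to 3 adaptors and 4 related receptor chains risen (2 and 3 without it). In the knockout, 0 SOCS family members and phosphatases fell with the block (1 without it). Signals near background limit Il4ra and Il7r, whose fold changes are smaller under corrections that raise low values, and Il13ra1 was not well above background anywhere.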
